A study of Mus musculus with 19 samples.

Results

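The 8 genes described here encode surface, signalling and lineage proteins of B lymphocytes. They were *Cd79a*, *Cd79b*, *Ms4a1*, *Cd22*, *Fcer2a*, *Cr2*, *Pax5* and *Blk*, taken by symbol. All 8 were found among the 13756 genes of the table for inguinal white adipose tissue (iWAT), the 55487 of the table for brown adipose tissue (BAT) and the 55573 of a table of 7 tissues. RNA-Seq had been run on 19 libraries. iWAT and BAT came from male wild type (WT) and MCK-Musclin mice fed a chow diet and kept at 8 °C for 1 week, with 3 biological replicates for each genotype and tissue. In MCK-Musclin mice the promoter of muscle creatine kinase, known to act in striated muscle, drives a Musclin (*Ostn*) transgene. The mice of both tissues were 5 months old. Several founder lines were bred to C57BL/6J, and which of them was profiled is not given in the sources used here. The other 7 libraries were 1 each from small intestine, white and brown fat, liver, brain, heart and the tibialis anterior (TA) muscle of C57BL/6J WT mice on chow, for which no cold exposure is stated.

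B cells carry an antigen receptor in which a membrane immunoglobulin binds antigen and the paired chains Igα and Igβ, encoded by *Cd79a* and *Cd79b*, pass the signal into the cell. Src-family kinases such as Blk act just below the receptor, and surface proteins such as CD22 and CD21 dampen or boost its signal. Pax5 is the transcription factor that holds cells in the B lineage, and it is switched off, with many B cell surface genes, when a B cell becomes an antibody-secreting plasma cell. In mice B cells gather in lymph nodes, spleen, Peyer's patches and the small lymphoid clusters of visceral fat, and a lymph node lies within the inguinal fat depot.

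Promoter sequences from RefSeq (build GRCm38.p6, 250 bases before to 50 after a transcription start) were held for 5 of the 8 genes, with 3 starts for *Fcer2a* and 7 windows in all. *Cd79b*, *Ms4a1* and *Blk* are named only. The windows were searched on both strands for 4 short motifs of factors that work in B cells, none of which overlapped another in these windows. These were ATGCAAAT (the octamer), AGGAAGT (ETS-family factors), TCCC followed after any 2 bases by GGGA (Ebf1) and CAGCTG (E proteins). Each of the 3 windows below held 1 match, written in capitals, and they are shown for that reason.
*Cd79a* promoter, GRCm38.p6 chr7:24897247-24897546, plus strand: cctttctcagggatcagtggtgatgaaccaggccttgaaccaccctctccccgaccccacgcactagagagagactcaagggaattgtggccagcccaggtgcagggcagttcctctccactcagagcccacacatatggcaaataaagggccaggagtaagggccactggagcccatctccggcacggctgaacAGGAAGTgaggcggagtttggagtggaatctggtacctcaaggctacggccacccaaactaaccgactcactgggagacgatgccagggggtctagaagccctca
*Cd22* promoter, GRCm38.p6 chr7:30878979-30879278, minus strand: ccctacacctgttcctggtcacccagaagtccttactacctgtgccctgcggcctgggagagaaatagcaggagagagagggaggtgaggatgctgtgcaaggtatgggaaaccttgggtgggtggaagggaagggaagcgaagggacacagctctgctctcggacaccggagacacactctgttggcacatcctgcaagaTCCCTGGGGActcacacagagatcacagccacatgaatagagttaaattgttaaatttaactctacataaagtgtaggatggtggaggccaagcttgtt
*Fcer2a* promoter (the second of its 3 starts by coordinate), GRCm38.p6 chr8:3690812-3691111, minus strand: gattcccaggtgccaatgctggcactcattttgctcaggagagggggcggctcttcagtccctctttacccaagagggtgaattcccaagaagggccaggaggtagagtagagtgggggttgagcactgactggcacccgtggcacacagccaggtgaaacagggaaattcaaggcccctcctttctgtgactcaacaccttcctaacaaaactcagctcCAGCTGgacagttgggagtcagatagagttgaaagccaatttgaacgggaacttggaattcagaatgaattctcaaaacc

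In the *Cd79a* window the ETS-family letters began 55 bases before the start, in the *Cd22* window the Ebf1 letters began 49 bases before it, and in the *Fcer2a* window the E protein letters began 30 bases before it. Among 32851 promoter windows of the same length, 9.35% held the ETS-family letters, 0.904% the Ebf1 letters, 16.3% the E protein letters and 1.74% the octamer. The windows of *Cr2* and *Pax5* and the other 2 of *Fcer2a* held none of the 4 motifs, which says only that these letters are not in those windows. No measurement of factor binding was part of these data, so the matches describe sequence and nothing else.

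Values were FPKM, fragment numbers scaled to transcript length and to the mapped fragments of the library, so that levels of different genes can be set side by side within a library. The sum of FPKM over all genes was 364710 to 384104 in the iWAT libraries, 676362 to 720852 in BAT and 393682 to 711437 in the 7 tissues. Sequencing depth is unknown for the iWAT table. *Ostn*, which reports the transgene, was 37.9, 31.6 and 30.3 FPKM in the MCK-Musclin BAT libraries and listed at 0 in the WT ones. Skeletal muscle genes summed to 512 to 1158 FPKM in those MCK-Musclin BAT libraries and to 312 to 500 FPKM in WT BAT, and their part in the *Ostn* value was not tested. In iWAT it was 0, 5.17 and 4.21 in the libraries labelled MCK-Musclin replicates 1, 2 and 3, against 0, 0 and 0.225 in WT. The library labelled MCK-Musclin replicate 1 was thus not told from WT by *Ostn*, and the genes of skeletal muscle were near 0 in it as well. Their summed FPKM over 7 genes was 8.88, 493 and 2545 in WT replicates 1 to 3 and 7.97, 93.8 and 105 in MCK-Musclin, so that muscle RNA differed widely between replicates of 1 genotype. The 9 adipocyte genes (*Adipoq* and others) were high in all 6 iWAT libraries, at summed FPKM of 12325 to 15258.

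In iWAT all 8 B cell genes were higher in MCK-Musclin than in WT. Each of the 3 MCK-Musclin libraries lay above each of the 3 WT libraries for every one of the 8, whereas this was so for 17.9% of the 12197 genes tested. WT replicate 1 lay close below the MCK-Musclin libraries, and the other 2 WT libraries lay well below. The genes are taken here by role, from the receptor's signal chains to the surface proteins and then to the lineage factor and the kinase. In RNA from whole tissue, a change in the number of B cells and a change in RNA per B cell cannot be told apart.

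*Cd79a* had the highest level of the 8. It was 135, 81.7 and 66.9 FPKM in WT replicates 1, 2 and 3 and 151, 204 and 224 FPKM in MCK-Musclin. Its means were 94.6 ± 35.9 FPKM (SD, n = 3) in WT and 193 ± 38.0 FPKM (SD, n = 3) in MCK-Musclin, a 2.04-fold ratio. On the log2(FPKM + 1) scale the difference was 1.06 (standard error 0.27, 95% interval 0.44 to 1.69). *Cd79b*, which encodes the partner chain, was 29.8, 15.5 and 16.2 FPKM in WT and 30.4, 45.5 and 33.0 FPKM in MCK-Musclin. The lowest MCK-Musclin library was 1.02 times the highest WT library, so the groups only just parted. The log2 difference of *Cd79b* was 0.84 (95% interval 0.22 to 1.45).

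*Ms4a1* encodes CD20, a membrane protein of B cells that is lost in plasma cells. It was 29.4, 15.9 and 15.9 FPKM in WT and 31.2, 40.6 and 36.7 FPKM in MCK-Musclin, with a log2 difference of 0.85 (95% interval 0.29 to 1.40). Here too WT replicate 1 lay nearest to the MCK-Musclin group. *Cd22*, an inhibitory receptor that binds sialic acid, was 25.3, 19.6 and 13.6 FPKM in WT and 30.6, 32.4 and 35.2 FPKM in MCK-Musclin. The MCK-Musclin libraries of *Cd22* were close to each other (SD 2.35 FPKM against 5.86 in WT), and the log2 difference was 0.76 (95% interval 0.28 to 1.23). *Fcer2a* encodes CD23, the low-affinity receptor for immunoglobulin E found on mature follicular B cells. Its levels were 31.0, 16.1 and 14.2 FPKM in WT and 34.4, 45.2 and 40.7 FPKM in MCK-Musclin. Its log2 difference of 1.01 (95% interval 0.38 to 1.65) was next in size to that of *Cd79a*. *Cr2* encodes CD21, a complement receptor carried by mature B cells and also by follicular dendritic cells. It was 11.9, 7.76 and 6.95 FPKM in WT and 12.2, 13.2 and 14.8 FPKM in MCK-Musclin. With a log2 difference of 0.57 (95% interval 0.13 to 1.01) it moved least of the 8.

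*Pax5* was 22.2, 15.3 and 11.8 FPKM in WT and 22.7, 27.6 and 27.7 FPKM in MCK-Musclin, a log2 difference of 0.67 (95% interval 0.17 to 1.17). *Blk* had the lowest level of the 8, at 9.10, 3.76 and 4.33 FPKM in WT and 11.4, 12.7 and 11.1 FPKM in MCK-Musclin. Its 2.04-fold ratio of means nevertheless equalled that of *Cd79a*, and its log2 difference was 1.00 (95% interval 0.37 to 1.63). Ratios of group means ran from 1.51 for *Cr2* to 2.04 for *Blk* and *Cd79a*. The 95% intervals of the 8 overlapped one another.

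**Figure D1:**
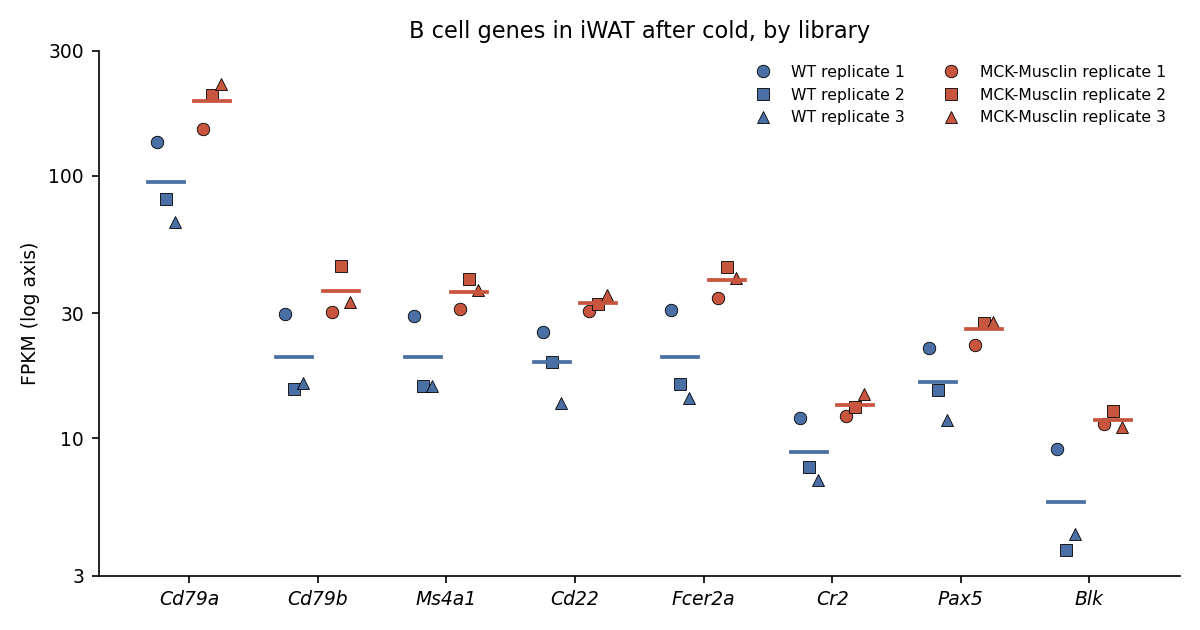
FPKM (log axis) of the 8 B cell genes in each iWAT library, WT in blue and MCK-Musclin in red, with the replicate number as the marker shape and the group mean as a bar. For each gene the 3 MCK-Musclin libraries sit above the 3 WT libraries, and WT replicate 1 sits between them and the other 2 WT libraries.

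At the study's cutoff for iWAT, an unadjusted p under 0.05 and a log2 fold change over 0.5 in size, all 8 B cell genes were called higher, where 5.04% of the 12197 genes tested were called higher (615 genes) and 0.902% lower (110 genes). Their unadjusted p in limma ran from 0.0049 (*Cd79a*) to 0.018 (*Cr2*). None passed Benjamini-Hochberg adjustment at 0.05. Adjusted p in limma ran from 0.156 to 0.215 for the 8, and 0 of the 12197 genes passed, with 2012 at an unadjusted p under 0.05. The median log2 difference of the 8 was 0.84, beside 0.06 for all genes tested. Their log2 differences lay at or above the percentile 96.0 of all genes tested, and their mean levels between the percentiles 48.6 and 96.8. All 8 passed the filter of a mean of 1 FPKM by a wide margin in both genotypes, so that no gene entered through the higher group alone.

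The calls leaned on several libraries. Without WT replicate 1, the highest WT library for all 8, they stayed called with a median log2 difference of 1.13. In that fit 3 of the 8 (*Ms4a1*, *Fcer2a* and *Blk*) were at an adjusted p under 0.05 in limma. There 6.91% of all genes tested were called higher (844 genes). How many of all genes passed that adjustment is not given here, so the 3 cannot be read as particular to this list. Without WT replicate 2, *Cd79b* (log2 difference 0.67, 95% interval -0.02 to 1.37) and *Cr2* (0.50, 95% interval -0.03 to 1.03) were no longer called, leaving 6. Without WT replicate 3, *Cd79b*, *Cr2* and *Pax5* were no longer called, leaving 5. *Cd79b* was no longer called without MCK-Musclin replicate 2, nor *Cr2* without MCK-Musclin replicate 3, which left 7 each time. Without the library labelled MCK-Musclin replicate 1 all 8 stayed called, with a median of 0.95. Over the fits that left out 1 library, 4.32% to 6.91% of all genes tested were called higher. The libraries numbered 1 of both genotypes, those with hardly any muscle RNA, were also left out together, a choice made after seeing the data. The 8 stayed called with a median log2 difference of 1.24, where 7.79% of all genes tested were called higher. WT replicate 1 was the highest WT library for all 8, and MCK-Musclin replicate 1 the lowest of its group for all but *Blk*. Leaving out this pair was therefore bound to widen the difference, and the result is no separate support.

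WT replicate 1 was the highest WT library for all 8 genes, as it was for 36.7% of the genes tested. Its levels were 1.52 times (*Cd22*) to 2.25 times (*Blk*) the mean of the other 2 WT libraries. The library labelled MCK-Musclin replicate 1 exceeded it by only 1.02 times (*Cd79b* and *Cr2*) to 1.25 times (*Blk*). The same WT library had little muscle RNA, as given above, and less of the brown and beige adipocyte genes, whose summed FPKM over 7 genes was 568 in it against 898 and 1063 in the other WT libraries. In the MCK-Musclin libraries that sum was 641, 221 and 115. The part of muscle RNA or beige adipocyte content in the B cell result was not tested.

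Within a library the 8 genes kept similar proportions. *Cd79a* made up 44.7% to 52.9% of their summed FPKM across the 6 iWAT libraries, *Cd79b* 7.81% to 10.8%, *Ms4a1* 8.66% to 10.6%, *Cd22* 7.69% to 11.2% and *Fcer2a* 9.17% to 10.7%. *Pax5* made up 6.54% to 8.71%, *Cr2* 3.12% to 4.64% and *Blk* 2.14% to 3.52%. The summed FPKM itself ran from 150 (WT replicate 3) to 423 (MCK-Musclin replicate 3). The make-up thus varied far less than the total. The shares of *Cr2* and *Pax5* were each lower in all 3 MCK-Musclin libraries (*Cr2* at most 3.76%, *Pax5* at most 7.03%) than in all 3 WT libraries (*Cr2* at least 4.06%, *Pax5* at least 7.55%). The share of *Cd79a* only just parted, at 46.55% or more in the MCK-Musclin libraries and 46.52% or less in the WT libraries. For *Cd79b*, *Ms4a1*, *Cd22*, *Fcer2a* and *Blk* the shares of the genotypes overlapped. As parts of 1 sum the shares are not independent, and a larger *Cd79a* share lowers the others. With 3 libraries against 3, an exact permutation test cannot go below a two-sided p of 0.10, and none was run on these shares.

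**Figure D2:**
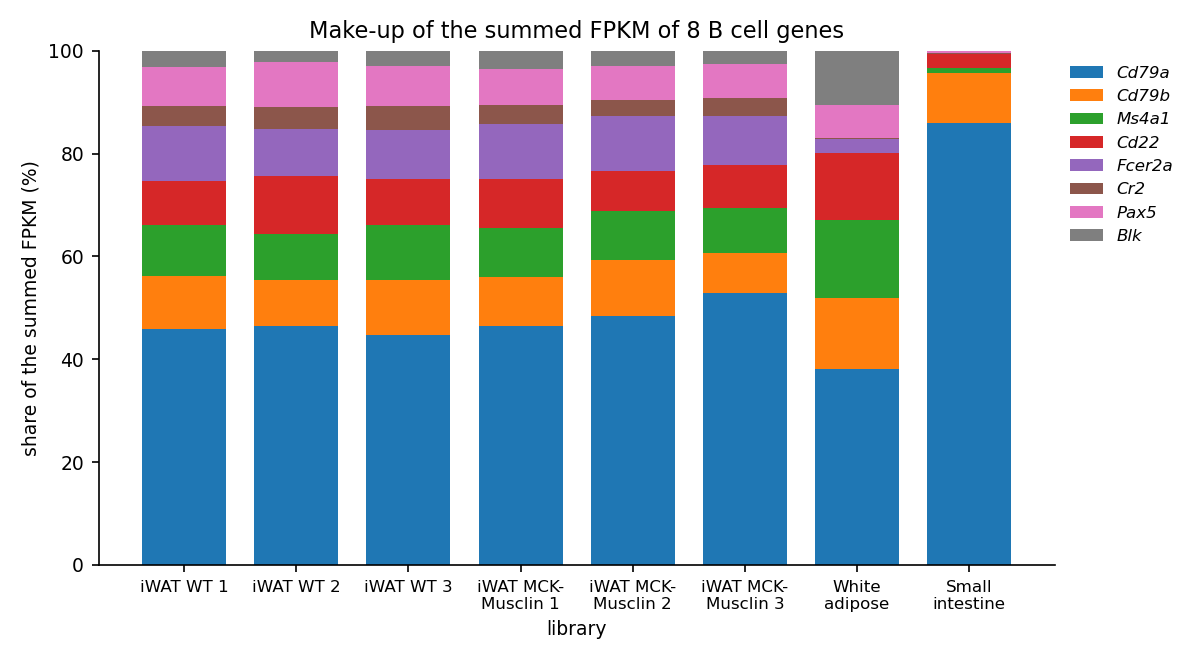
Share (%) of each of the 8 genes in their summed FPKM, for the 6 iWAT libraries and for the white adipose and small intestine libraries of the tissue table. *Cd79a* takes 44.7% to 52.9% in iWAT, 38.2% in white adipose tissue and 86.0% in the small intestine.

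Beyond the 8, 41 further genes of B lineage function were looked at in 4 lists. All 41 passed the filter, and 33 were called higher at the cutoff, where 5.04% of all genes tested were. Of the 41, 0 were called lower and 8 were not called, with a median log2 difference of 0.70 in limma. Many of these genes are also used by other white blood cells, and the lists were written with results of these data known. Of 10 co-receptors and surface proteins 9 were called higher. *Cd72*, an inhibitory co-receptor of B cells, was 24.8, 13.7 and 16.3 FPKM in WT and 30.5, 28.1 and 33.0 FPKM in MCK-Musclin. Its log2 difference was 0.75 (95% interval 0.28 to 1.23, adjusted p = 0.171 in limma). *Fcgr2b*, an inhibitory antibody receptor that macrophages and endothelial cells also carry, was not called (log2 difference 0.24).

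Of 14 genes of B cell receptor signalling 12 were called higher. *Bank1*, a B cell scaffold protein, had a log2 difference of 0.96, *Plcg2*, the phospholipase of the pathway, 0.76, and *Blnk*, the linker that recruits it, 0.59. *Dapp1* (0.38) and *Prkcb* (0.49) were not called. The kinases *Syk*, *Lyn* and *Btk*, which act with Blk, differed by 0.62, 0.56 and 0.63. Every gene of this list was highest among the WT libraries in replicate 1, as were 36.7% of all genes tested.

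Of 10 transcription factors 6 were called higher. *Pou2af1*, a coactivator of octamer factors in B cells, rose most (log2 difference 1.05), and *Spib*, *Pou2f2*, *Ikzf3*, *Bcl11a* and *Irf8* followed at 0.57 to 0.82. *Ebf1*, which acts beside Pax5 in B cells but is also an adipocyte gene, was 32.3, 34.3 and 30.3 FPKM in WT and 29.7, 36.0 and 32.6 FPKM in MCK-Musclin, a log2 difference of 0.02 (95% interval -0.23 to 0.26). *Irf4*, which is needed by plasma cells and is used by other cells too, differed by -0.13 (95% interval -0.72 to 0.45). Of 7 genes of survival and homing 6 were called higher. Among them were *Tnfrsf13c*, the receptor for the survival factor BAFF (0.83), *Tnfsf13b*, which encodes BAFF itself (0.76), and *Cxcr5*, the receptor that draws B cells into follicles (0.75). *Cxcl13*, the ligand of that receptor, was 257, 105 and 79.6 FPKM in WT and 252, 246 and 439 FPKM in MCK-Musclin. It was called higher (log2 difference 1.21), although the genotypes overlapped.

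**Figure D3:**
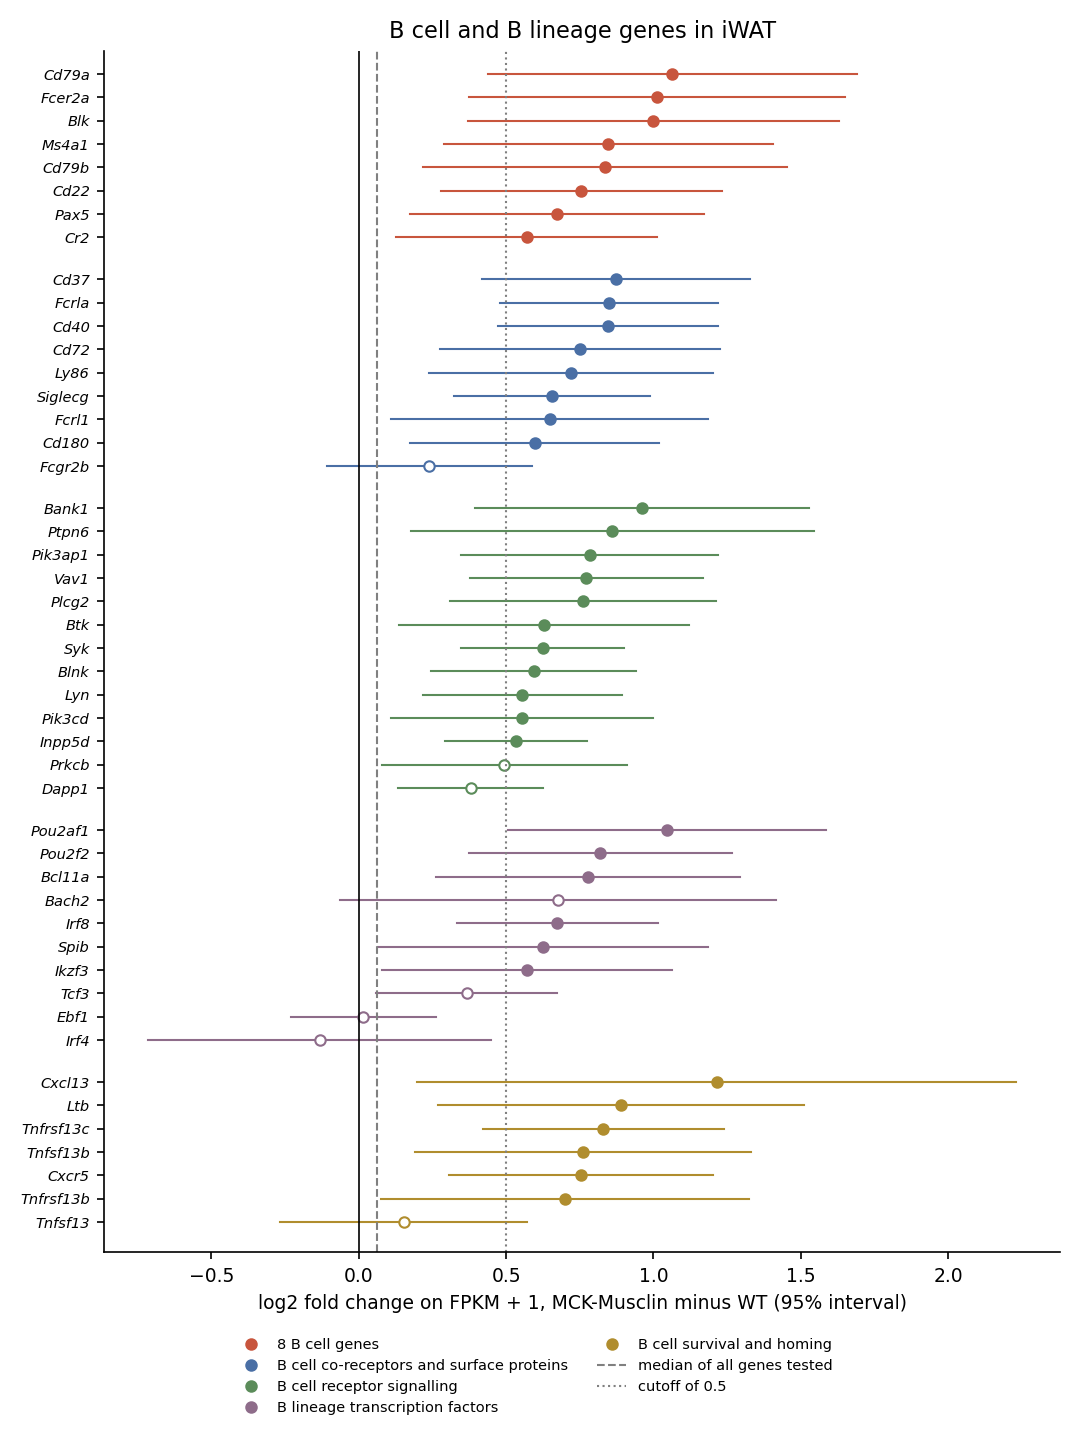
Log2 fold change on FPKM + 1 (MCK-Musclin minus WT, 3 libraries each) with its 95% interval from limma, for the 8 B cell genes and 39 of the 41 further genes in 4 lists. Filled points passed the cutoff (p under 0.05 and a log2 fold change over 0.5), which 8 of 8 and 31 of these 39 did, open points did not, the dashed line marks the median of all genes tested (0.06) and the dotted line the cutoff of 0.5.

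Genes of other stages of the lineage were looked at too. Of 8 plasma cell genes, 6 were tested and 1, *Mzb1*, was called (log2 difference 0.50). *Jchain*, which links secreted immunoglobulins, was 23.4, 66.6 and 75.8 FPKM in WT and 55.7, 54.9 and 68.0 FPKM in MCK-Musclin, with a log2 difference of 0.26 (95% interval -0.68 to 1.21). It was lowest in WT replicate 1, the WT library in which the 8 genes were highest. The summed FPKM of the plasma cell list was 150, 227 and 222 in WT and 214, 207 and 221 in MCK-Musclin. Of 6 progenitor genes 1 was tested, *Vpreb3*, a surrogate light chain partner that some mature B cells keep. It was 1.27, 0.538 and 0.377 FPKM in WT and 2.04, 2.18 and 2.19 FPKM in MCK-Musclin and was called higher (0.89). Of 5 germinal centre genes 2 were tested and 0 were called in limma, with log2 differences of 0.41 for *Gcsam* (95% interval 0.08 to 0.73) and 0.49 for *Mef2b* (95% interval -0.19 to 1.17). Of 7 immunoglobulin constant genes looked up by symbol, 0 were listed for iWAT, so they could not be analysed there.

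Markers of other cell types moved with the 8 genes. Of 14 T cell genes 12 were tested and 9 were called higher, and the genotypes did not overlap for 10 of them. Of all genes tested, 5.04% were called higher and 17.9% lay higher in MCK-Musclin without overlap. The median log2 difference of the T cell list was 0.67, and its summed FPKM was 145 to 216 in WT and 281 to 318 in MCK-Musclin. *Cd3e*, a chain of the T cell receptor complex, was 11.6, 9.57 and 12.3 FPKM in WT and 17.5, 19.2 and 18.8 FPKM in MCK-Musclin. All 5 pan-leukocyte genes (*Ptprc*, *Coro1a*, *Cd52*, *Cd53* and *Laptm5*) were called higher with a median of 0.72, at summed FPKM of 172 to 258 in WT and 311 to 354 in MCK-Musclin. Of 7 genes of lymph node stroma 5 were tested and 4 were called higher. *Glycam1*, made by the high endothelial venules of lymph nodes, was 7.74, 9.35 and 9.96 FPKM in WT and 18.1, 14.9 and 17.4 FPKM in MCK-Musclin. *Lyve1*, tested but not called, overlapped at 51.5, 65.5 and 58.8 FPKM in WT and 67.0, 54.3 and 90.1 FPKM in MCK-Musclin. *Chst4* and *Fut7* stayed below the filter, and the genotypes overlapped for *Chst4* but not for *Fut7*. The summed FPKM of the stroma list was 209 to 378 in WT and 401 to 653 in MCK-Musclin. Of 4 follicular dendritic cell genes, 3 (*Cxcl13*, *Madcam1* and *Clu*) were called higher, at summed FPKM of 200 to 448 in WT and 488 to 801 in MCK-Musclin. *Cxcl13* stands in the stroma, follicular dendritic cell and survival and homing lists alike, so that these are not separate support. Without it the stroma genes summed to 122 to 130 FPKM in WT and 155 to 215 in MCK-Musclin, and the follicular dendritic cell genes to 120 to 191 in WT and 236 to 363 in MCK-Musclin. No defining marker that was tested in these 4 lists was at 0 in any iWAT library. How much lymph node each dissected depot held is not given in the sources used here, and its part in the result was not tested.

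Of 12 macrophage genes 1, *Cd68*, was called higher, and the list had a median log2 difference of 0.22, with summed FPKM of 791, 776 and 765 in WT and 1078, 767 and 1105 in MCK-Musclin. Replicates 1 and 3 of MCK-Musclin lay above the WT libraries in that sum, and replicate 2 lay within their range. Of 6 dendritic cell genes 1, *Flt3*, was called higher, with a list median of 0.21. Summed FPKM of the 8 B cell genes over that of the T cell genes was 1.36, 1.21 and 0.81 in WT and 1.15, 1.32 and 1.46 in MCK-Musclin, so that the genotypes overlapped. Over the pan-leukocyte genes it was 1.14, 1.02 and 0.83 in WT and 1.04, 1.31 and 1.20 in MCK-Musclin, again with overlap. When each library was centred on the pan-leukocyte genes, the median log2 difference of the 8 was 0.15, 0 of the 8 were called in limma, 0 had an unadjusted p under 0.05, and *Pax5* (-0.02) and *Cr2* (-0.12) fell below 0. In that setting 15 of the 12197 genes tested (0.123%) were called higher and 8561 lower. The absence of calls among the 8 is thus not particular to them. That centring shifted the median of all genes by the same amount, to -0.63. It takes 1 value per library from every gene, so the gap of 0.78 between the 8 and that median could not change. The unchanged gap is therefore no result of the centring.

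**Figure D4:**
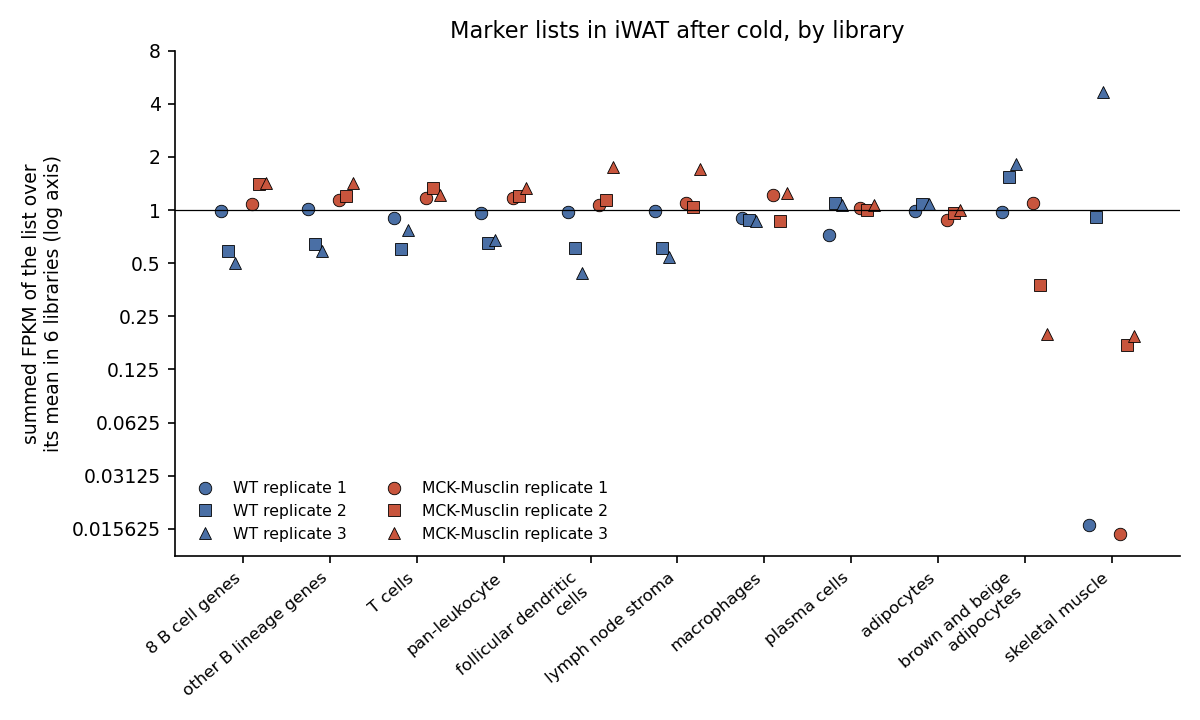
Summed FPKM of marker lists in each iWAT library, divided by the mean of the list over the 6 libraries (log axis), WT in blue and MCK-Musclin in red, with the replicate number as the marker shape. The 8 B cell genes, the other B lineage genes, T cells and pan-leukocyte genes are higher in all MCK-Musclin libraries, macrophage and plasma cell sums overlap, and skeletal muscle genes are lowest in both libraries numbered 1.

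By profile over the 6 iWAT libraries, the 5 genes most like the mean of the 8 were *Gpr18*, *Ciita*, *Bank1*, *Btla* and *Tnfrsf13c*. Likeness was the mean absolute difference between centred log2(FPKM + 1) profiles, which was 0.047 to 0.065 for these 5 and at most 0.137 for the 8 themselves. *Gpr18* was 8.41, 4.73 and 4.79 FPKM in WT and 9.62, 12.4 and 11.6 FPKM in MCK-Musclin. *Ciita*, the master regulator of MHC class II genes, was 13.0, 8.32 and 6.63 FPKM in WT and 14.4, 16.1 and 17.4 FPKM in MCK-Musclin. *Bank1* and *Tnfrsf13c* were already in the lists above, and *Btla* encodes an inhibitory receptor of lymphocytes.

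In BAT the 8 genes were near the floor of the data. None reached a mean of 1 FPKM, so 0 of the 8 were among the 10893 genes tested there. *Cd79a* was the only one of the 8 above 0 in all 6 libraries, at 0.644, 0.301 and 0.616 FPKM in WT and 0.211, 0.323 and 0.465 FPKM in MCK-Musclin. *Cd79b* was 0.238, 0.033 and 0.140 FPKM in WT and 0.061, 0 and 0 in MCK-Musclin. *Cd22* was 0.116, 0.069 and 0.126 FPKM in WT and 0.129, 0 and 0.103 in MCK-Musclin. The genotypes overlapped for *Cd79a*, *Cd79b* and *Cd22* alike.

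The other 5 were above 0 in 1 to 5 of the 6 BAT libraries and did not exceed 0.112 FPKM (*Pax5* in MCK-Musclin replicate 1). *Blk* was listed at 0 in all libraries but WT replicate 2. When every gene above 0 was tested, 0 of the 8 passed the BAT cutoff (p under 0.05 and a log2 fold change past 0.3) in limma, where 2.03% of 23961 genes did. None of the 8 had an unadjusted p under 0.05, the lowest being 0.069 in limma for *Cd79b* (log2 difference -0.15, 95% interval -0.32 to 0.02). For *Cd79a* the difference was -0.19 (95% interval -0.49 to 0.12). These values understate changes of low genes because of the added 1, and a difference at these levels was not detectable. Whether the genotype difference was larger in iWAT than in BAT was not tested, since the tables were normalised separately.

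Pan-leukocyte genes were present in BAT at summed FPKM of 5.07 to 13.6, and T cell genes at 1.85 to 4.05. The 8 genes together summed to 0.472 to 1.05 FPKM in WT BAT and 0.358 to 0.613 FPKM in MCK-Musclin BAT, against 150 to 423 FPKM in iWAT. The iWAT and BAT tables can only be set side by side.

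Across the 7 WT tissues, each 1 library with no replicate, the 8 genes did not share 1 order. *Cd79a* ran from small intestine (33.0 FPKM) through white adipose tissue (1.56), brown adipose tissue (0.816), heart (0.814), liver (0.509) and brain (0.343) to TA muscle, where it was listed at 0. *Cd79b* was likewise highest in small intestine (3.70), followed by white adipose tissue (0.563), liver (0.289) and heart (0.199). *Cd22* was 1.07 in small intestine, 0.536 in white adipose tissue and 0.222 in liver. The receptor's signal chains and CD22 thus had their highest value in the small intestine.

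The other 5 genes did not. *Ms4a1* was highest in white adipose tissue (0.614 FPKM), with 0.362 in small intestine, and *Blk* was highest in white adipose tissue too (0.431), with 0.027 in small intestine. *Fcer2a* was highest in liver (0.412), before white adipose tissue (0.109) and brown adipose tissue (0.096). *Cr2* stayed at or below 0.094 FPKM, its value in liver. *Pax5* was highest in brain (1.44), where *Cd79a* was 0.343 and the other 6 genes were listed at 0, and its next value was 0.260 in white adipose tissue. Pax5 is also a developmental factor of the midbrain and hindbrain. With 1 library a tissue there is no spread to set neighbouring values against, and low FPKM values rest on few reads.

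Of the 8 genes, *Cd79a* was by far the highest in the small intestine library. *Cd79a* was 86.0% of the summed FPKM of the 8 there, *Cd79b* 9.66% and *Ms4a1* 0.944%, and *Cd79a* was 91.1 times *Ms4a1*. In the iWAT libraries *Cd79a* was 4.21 to 6.11 times *Ms4a1*, and in the white adipose library 2.53 times. The small intestine library also held *Jchain* at 1966 FPKM, *Igkc*, the kappa light chain, at 8751 and *Igha*, the heavy chain of immunoglobulin A, at 3923. *Ighm*, the heavy chain of immunoglobulin M, was 6.74 FPKM there and 172 in white adipose tissue. Igα and Igβ can persist in antibody-secreting cells, whereas CD20, CD23 and CD21 are not kept. The plasma cell list summed to 2261 FPKM in small intestine, 173 in white adipose tissue and 204 in liver, and its part in the *Cd79a* value was not tested.

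In TA muscle, where all 8 were listed at 0, the pan-leukocyte genes summed to 1.93 FPKM, and *Ighm* was 22.0 FPKM. Of the 6 progenitor genes, liver had *Vpreb1* (0.266 FPKM), *Vpreb3* (0.306) and *Dntt* (0.750) above 0, and *Igll1*, *Rag1* and *Rag2* at 0. *Vpreb3* was also above 0 in small intestine (0.198). These low values rest on 1 library a tissue. In the white adipose library the 8 genes summed to 4.08 FPKM, with pan-leukocyte genes at 74.0 and *Glycam1* listed at 0. The labels do not name its depot, and the library belongs to another table than the cold iWAT libraries, in which the 8 summed to at least 150 FPKM and *Glycam1* was at least 7.74 FPKM. Depot, temperature, age and batch cannot be told apart in that contrast.

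**Figure D5:**
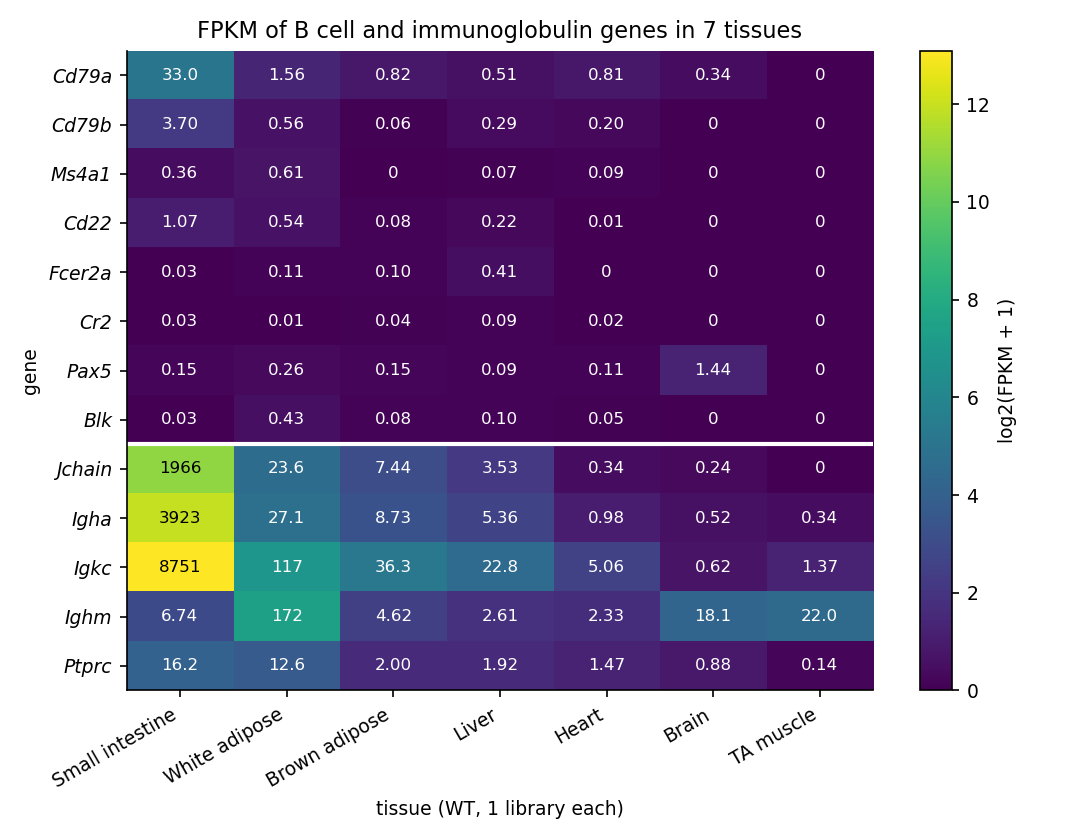
FPKM of the 8 B cell genes (above the white line) and of *Jchain*, 3 immunoglobulin constant genes and *Ptprc* (below it) in 7 WT tissues, 1 library each, with colour giving log2(FPKM + 1) and the number in each cell the FPKM. *Cd79a* at 33.0 FPKM in small intestine is the highest of the 8 genes, *Pax5* has its highest value in brain, and all 8 are listed at 0 in TA muscle.

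By profile over the 7 tissues only *Cd79a* had a mean of at least 1 FPKM, and the 5 genes most like it were *F2rl1*, *Fzd5*, *Tns4*, *Igkv8-24* and *Tmc5*, at distances of 0.201 to 0.220. All 5 were highest in small intestine, at 19.1 to 42.4 FPKM. They share that 1 library, and the likeness is a description of it. The genes of the 8 lie on 7 chromosomes in GENCODE M21 (GRCm38), with *Cd79a* (chr7:24897381-24902197) and *Cd22* (chr7:30865402-30880342) on the same one. The counting was not stranded, and exons of *Cd22* overlap the antisense *Gm29439* and exons of *Pax5* the antisense *5730488B01Rik* and *Gm12462*. These 3 were at or below 0.249 FPKM wherever listed, which was in the BAT and tissue tables, and the highest of those values was *Gm12462* in a tissue library. Reads of *Pax5* and *Cd22* cannot be told from those of their antisense partners.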

How the data were processed

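The deposited FPKM values were made by the authors from poly(A)-selected, random-primed libraries. Per the study's methods reads were filtered with fastp and bowtie2, aligned with HISAT2 to GRCm38 without strand and turned into FPKM with StringTie, and the submitters' processing notes name HISAT2 2.1.0, Bowtie2 2.4.1, fastp and Cuffdiff, which can also give FPKM, so that the tool behind each table is not settled here. RNA of white adipose tissue was extracted with a commercial kit and that of other tissues with TRIzol. The iWAT table also holds the authors' own fold changes, p-values and base means, which were not used. All 19 FPKM columns were mapped to samples, 0 were left out, and 287 repeated rows were dropped from the BAT table and from the 7-tissue table.

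FPKM are not counts, so the study's count test was not run. Within each table, log2(FPKM + 1) of genes with a mean of at least 1 FPKM was tested with limma 3.58.1 in R 4.3.3 (eBayes with trend, Benjamini-Hochberg), with the study's cutoffs of unadjusted p under 0.05 and a log2 fold change over 0.5 (iWAT) or 0.3 (BAT). The code was tested on simulated data. Tables were never tested against each other. Some genes of the lists are counted in them but not reported here by name. The 8 genes, the marker lists and the rules for naming genes (list genes, *Ostn*, exon overlaps and the 5 most alike profiles per table) were chosen with earlier results of these data known. Alternatives were pseudocount, filter, scaling, centring, eBayes options, a replicate block and leaving out each library. One more, leaving out the libraries numbered 1 of both genotypes, was chosen after seeing the data. The marker lists for heart, liver, small intestine and brain gave the labelled tissue its highest summed FPKM in each case, and muscle genes were highest in TA muscle.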

Additional observations from a re-analysis of the deposited data

How the results depend on the processing

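The 8 of 8 genes called higher in iWAT stayed between 7 and 8 under other pseudocounts, filters, scalings, eBayes options and the other tissue's cutoff, and the direction of each gene held in all of these. Centring on pan-leukocyte genes gave 0 of the 8 called, 0 of the 41 other B lineage genes called and a median log2 difference of 0.15, with *Cr2* at -0.12 and *Pax5* at -0.021. It called 15 of all genes tested (0.123%) higher and 8561 lower, so these counts are not particular to B lineage genes. Leaving out 1 library at a time gave 5 to 8 of the 8 called, beside 4.32% to 6.91% of all genes called higher. Leaving out the libraries numbered 1 of both genotypes, chosen after seeing the data, moved the median from 0.84 to 1.24. That widening followed from which libraries were left out. The 33 calls among the 41 other B lineage genes ran from 23 to 37 under the rest. *Cr2*, with a log2 difference of 0.50 under median-ratio scaling and quantile normalization, lost its call under both. These scalings called 426 genes higher against 187 and 181 lower, where the deposited FPKM gave 615 against 110. Adipocyte centring called 1993 higher and 27 lower, moved the median of all genes to 0.28, and put 7 of the 8 at an adjusted p under 0.05 in limma. Since that setting moved all genes up, the adjusted calls cannot be read as particular to the 8. The cause of these shifts was not tested.

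The labels do not say whether the replicate numbers pair the libraries. Deviations of same-numbered iWAT libraries from their group means correlated at 0.23, 0.06 and 0.11, and those of BAT at -0.10, -0.005 and 0.01. With the replicate block 8 of the 8 and 32 of the 41 were called, and the block changed 620 against 615 genes called higher and 154 against 110 lower. Among the 6 iWAT libraries all but MCK-Musclin replicate 2 correlated best with their own number.

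None of the 8 passed the filter in BAT, which leaves no median over them there. Without the filter, or with the other cutoff, 0 of the 8 were called. In the tissues, 3 of the 8 were highest in small intestine under FPKM, TPM and median-ratio scaling alike. Replicates number 3 a group, the reads behind the iWAT values are unknown, and the tissues have 1 library each, which limits precision.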

Other observations

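Among the immunoglobulin constant genes, *Ighm* had another order over the 7 tissues than *Cd79a*, while *Igkc* and *Igha* were, like *Cd79a*, highest in small intestine and next in white fat. In BAT, *Ighm* was 23.3, 13.2 and 50.03 FPKM in WT and 29.3, 23.2 and 25.7 FPKM in MCK-Musclin, while *Igkc* was at most 6.50 FPKM and *Cd79a* at most 0.644 FPKM. In brain *Ighm* was 18.1 FPKM with *Igkc* at 0.616, and in TA muscle it was 22.0 FPKM with *Igkc* at 1.37. In small intestine the order was the opposite, with *Ighm* at 6.74 and *Igkc* at 8751 FPKM. *Rgs13*, which germinal centre B cells express, was 4.43 FPKM in small intestine and at most 0.024 FPKM in the other 6 tissues.

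*Ebf1* had 54.8 FPKM in white and 22.3 FPKM in brown fat, against 0.726 in small intestine, where *Cd79a* was 33.0. *Bcl11a* (23.0 FPKM) and *Prkcb* (123 FPKM) were highest in brain, where 6 of the 8 B cell genes were listed at 0.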
